A study of Mus musculus with 3 samples.

Results

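The cadherins and protocadherins of N1E-115 cells are described here from the counts of 94 genes, chosen by name as every gene symbol that begins with Cdh and a digit or with Pcdh, out of 24384 named genes. N1E-115 is a mouse neuroblastoma line, a clonal line from a tumour of the sympathetic nervous system, and the labels call its cells neuroblasts of wild-type genotype. The data are 3 poly(A) RNA libraries of such cells, taken at day 0 without treatment, so there was 1 group and no comparison between conditions. The labels do not say whether the libraries came from separate cultures, and the spread between them may be technical. Levels are CPM, the estimated counts per 1000000 counts of named genes in a library, as mean ± SD over n = 3 libraries; different genes are ordered by level as CPM per kilobase of annotated exon, and shares of counts are not scaled for length.

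Cadherins are calcium-dependent adhesion proteins of the cell surface. Classical cadherins join neighbouring cells by binding the same cadherin on the other cell, and catenins tie their cytoplasmic tails to actin. Type I members bind strongly and include E-cadherin of epithelia and N-cadherin of neural tissue, while type II members are used by subsets of neurons and mesenchymal cells. Protocadherins adhere more weakly and serve in recognition between neurites. The alpha, beta and gamma protocadherins lie in a row of clusters in which each cell switches on its own set of promoters, a choice that depends on CTCF, cohesin and DNA methylation. Alpha and gamma transcripts join a variable first exon to constant exons that all genes of the cluster share, whereas each beta gene is made from an exon of its own.

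Named genes drew 17731377 estimated counts in replicate 1, 13942017 in replicate 2 and 15432235 in replicate 3, so that 3 counts, the upper limit that a count of 0 allows, were worth 0.169, 0.215 and 0.194 CPM. All 10 listed markers of sympathetic neuroblasts were detected, with a summed level of 5036 to 5670 CPM per library. Markers of other cell types summed to 0 to 0.226 CPM for epithelium (0 of 7 detected, and Epcam, Krt18, Krt19 and Cldn7 at 0), 11.5 to 17.1 for endothelium (2 of 6, Kdr and Cldn5 at 0), 10.4 to 12.9 for fibroblasts (3 of 7, Col3a1 and Lum at 0), 5.77 to 10.8 for Schwann cells (2 of 6, Foxd3 at 0) and 1.56 to 3.87 for blood (1 of 5, Ptprc, Cd3e and Itgam at 0). In an edgeR test of variation, 76 of 11821 genes varied between libraries. In RNA of a whole culture, fewer cells that express a gene and less RNA per cell cannot be told apart.

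A gene is called detected where no library was under 1 CPM, which held for 31 of the 94 genes (33.0%) and for 47.2% of all named genes. Another 9 reached 1 CPM in some libraries only, and 21 (22.3%) had no counts in any library, against 36.7% of all named genes. The detection minimum passed between Pcdhga12 (1.01, 1.46 and 1.57 CPM), the detected gene with the lowest minimum, and Pcdha3 (1.42, 2.49 and 0.926 CPM), the undetected gene with the highest. The family took 0.0853, 0.0692 and 0.0764% of all counts. These counts were spread very unevenly, since 50.1 ± 1.71% of them belonged to Pcdh1 alone, 31.6 ± 0.79% to the 59 clustered protocadherins and 13.7 ± 1.54% to the cadherins. Of the detected genes, 26 lie on chromosome 18, as do 61 of the 94, because that chromosome holds the clusters and also Cdh2, Pcdh1 and Pcdh12.

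**Figure D1:**
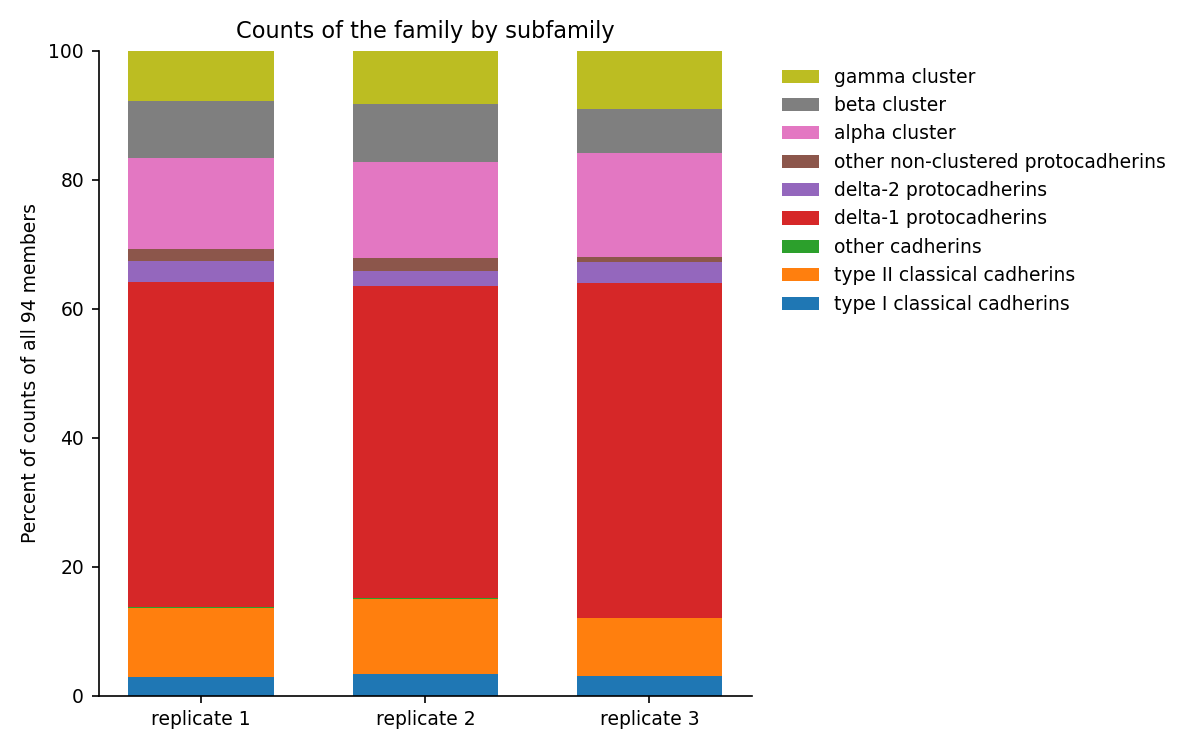
Percent of the counts of all 94 genes (y axis) taken by each subfamily in each library (x axis), as stacked bars. Delta-1 protocadherins, which are nearly all Pcdh1, took 48.4 to 51.8%, and the alpha cluster 14.2 to 16.1%; the shares are of counts and are not scaled for length.

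Of the classical cadherins, Cdh22 and not N-cadherin had the highest level per kilobase. Of 5 type I genes 2 were detected (40.0%) and of 13 type II genes 2 (15.4%), against 47.2% of all named genes, so the type I share was near that of all genes. Cdh22, a type II cadherin also called PB-cadherin and known from the pituitary and brain (chromosome 2, 165111507 to 165234853 in mm10), had 1435, 1035 and 981 counts, or 80.9, 74.2 and 63.6 CPM. It was highest in replicate 1 and lowest in replicate 3. Cdh2, N-cadherin (chromosome 18, 16588877 to 16809246), had 352, 250 and 274 counts, or 19.9, 17.9 and 17.8 CPM. Per kilobase, Cdh22 reached 19.7 ± 2.37 CPM and Cdh2 2.30 ± 0.144, without overlap between the libraries. Cdh24, a type II cadherin, was at 9.25, 6.17 and 5.18 CPM, highest in replicate 1. Cdh15, the type I cadherin of muscle precursors called M-cadherin, was at 4.34, 4.45 and 4.47 CPM, the smallest SD of the 31 detected genes (4.42 ± 0.0683). Per kilobase, Cdh24 (1.97 ± 0.608) overlapped Cdh2, and Cdh15 (1.36 ± 0.0210) lay below Cdh2 in every library. With the longest annotated transcript as length in place of all exon bases, the mean of Cdh2 was 3.82 CPM per kilobase, above every library of Cdh24.

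Cdh1 and Cdh11 were nearly without counts, Cdh13 had none, and Cdh4 was not detected. Cdh1, E-cadherin, had 1, 0 and 1 counts. Cdh2 exceeded it 248-fold per kilobase over the summed counts (exact 95% interval 68.6 to 2054, counting error only), and its log2 ratio to Cdh1 was 6.18, 6.68 and 5.94 in replicates 1, 2 and 3 with 0.1 CPM added to each. Cdh4, the type I cadherin of retina called R-cadherin, had 14, 7 and 8 counts, and Cdh2 was 27.2-fold higher per kilobase (interval 18.8 to 40.8; log2 ratio 4.60 ± 0.23). Cdh11, a cadherin of mesenchyme and osteoblasts, had 1 count over the libraries, and the Cdh2 ratio was 967-fold (interval 173 to 38240; log2 7.44 ± 0.47). Cdh13, a cadherin held in the membrane by a lipid anchor, had none. Per kilobase of annotated exon, Cdh2 was at least 407-fold higher against a floor of 3 counts over the group. Its log2 ratio to Cdh13 with 0.1 CPM added was 8.02 ± 0.09, and the mean was 7.45 by the longest transcript. With Cdh13 at 0, that SD is the spread of Cdh2 alone. All 4 ratios were positive in 3 of 3 libraries, but for Cdh13, which had no counts, that sign was fixed in advance. The same held for Cdh11 in replicates 1 and 2, where it had no counts. Cdh1 likewise had no counts in replicate 2. The two-sided exact sign-flip p was 0.25 for each, the smallest that 3 libraries allow.

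The other cadherins were not detected. Cdh5, the endothelial VE-cadherin, had 7, 2 and 1 counts, and Cdh6 had 7, 6 and 7. Cdh18 had 5, 3 and 0, and Cdh20 had 1, 0 and 0. None of the 5 cadherins outside the classical types was detected: Cdh17, the intestinal cadherin, was the highest with 10, 13 and 3 counts, and Cdh13, Cdh16, Cdh23 and Cdh26 had none. Cdh3, which is P-cadherin, and Cdh7, Cdh8, Cdh9, Cdh10, Cdh12 and Cdh19 were also at 0 in all libraries. Cdh19 is a marker of Schwann cell precursors, and the Schwann cell marker Foxd3 was at 0 too.

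Pcdh1 dominated the family. It belongs to the delta-1 protocadherins, whose long cytoplasmic tails bind protein phosphatase 1, and lies on chromosome 18 (38185914 to 38212053). It had 7599, 4662 and 6097 counts, or 429, 334 and 395 CPM, highest in replicate 1 and lowest in replicate 2. Per kilobase it reached 48.7, 38.0 and 44.9 CPM, and its lowest library exceeded the highest of Cdh22, 21.9; by the longest transcript the Pcdh1 mean was 71.3. The other delta-1 genes were not detected: Pcdh9 had 16, 7 and 13 counts, and Pcdh7 and Pcdh11x had none. 

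Of the 5 delta-2 protocadherins, whose tails recruit the actin-regulating WAVE complex or related partners, Pcdh17 alone had counts. It was at 28.0, 16.2 and 24.8 CPM (1.77 ± 0.470 per kilobase), lowest in replicate 2. Pcdh8, Pcdh10, Pcdh18 and Pcdh19 had no counts, and Pcdh10 and Pcdh19 are otherwise widely used in the developing brain. Pcdh20, known from neurons, was also at 0. Pcdh12, known from endothelium and also called VE-cadherin-2, was at 13.1, 10.3 and 5.18 CPM, and replicate 3 was lowest. The endothelial marker Pecam1 was lowest there too (7.50, 8.03 and 4.54 CPM), whereas Vwf was lowest in replicate 2 (9.36, 5.88 and 6.54 CPM). Tek and Emcn were not detected, with Tek highest in replicate 3 (0.226, 0.0717 and 0.389 CPM), and Kdr and Cldn5 were at 0; the part of such cells in the Pcdh12 level was not tested. Pcdh15, a component of the tip links of inner ear hair cells, was at 3.21, 2.87 and 1.49 CPM. At 0.106 ± 0.0384 CPM per kilobase it was the lowest of the detected genes on this scale, with 23773 bases of annotated exon. By its longest transcript it was at 0.277. On that length Pcdhga12 (0.265), Pcdhb18 (0.2555), Pcdha12 (0.2405) and Pcdhb19 (0.2369) were lower.

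**Figure D2:**
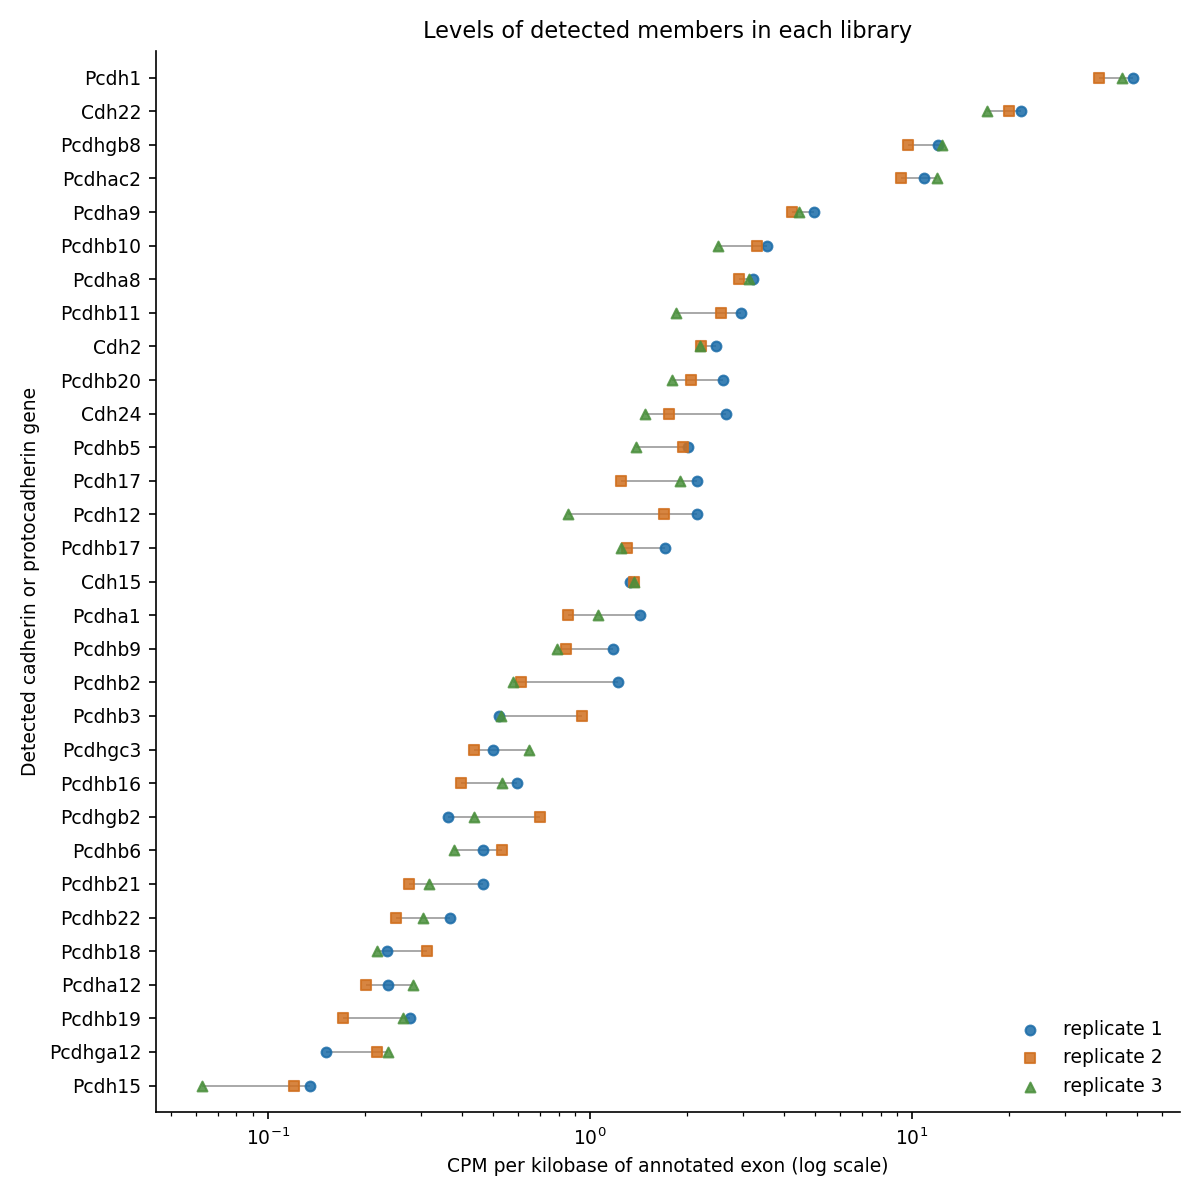
CPM per kilobase of annotated exon (x axis, log scale) of the 31 detected genes, with 1 point for each library and a line over their range. Pcdh1 stands apart at 38.0 to 48.7, followed by Cdh22, and Pcdhgb8 and Pcdhac2 overlap.

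Promoter sequence is shown for 4 non-clustered genes, to set detected genes beside a gene without counts. The windows run from 250 bases before to 50 bases after the annotated start (RefSeq, GRCm38.p6, the mm10 assembly) and are written 5′ to 3′ on the strand of the gene, with CG dinucleotides (CpG), the sites of DNA methylation, in capitals. Cdh22, Pcdh17 and Cdh15 were detected, and Pcdh10 had no counts. Per kilobase, the libraries of Cdh15 (1.36 ± 0.0210 CPM) overlapped those of Pcdh17 (1.77 ± 0.470). The windows are chr2:165234688-165234987 (minus strand), chr14:84443313-84443612 (plus), chr8:122848124-122848423 (plus) and chr3:45378148-45378447 (plus).
Cdh22: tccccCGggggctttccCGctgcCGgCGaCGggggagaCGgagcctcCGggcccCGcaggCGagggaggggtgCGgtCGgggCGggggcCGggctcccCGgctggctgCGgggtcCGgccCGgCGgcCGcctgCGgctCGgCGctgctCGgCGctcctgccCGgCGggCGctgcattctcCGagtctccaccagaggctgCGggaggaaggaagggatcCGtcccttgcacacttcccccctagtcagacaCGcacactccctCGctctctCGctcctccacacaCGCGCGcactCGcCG
Pcdh17: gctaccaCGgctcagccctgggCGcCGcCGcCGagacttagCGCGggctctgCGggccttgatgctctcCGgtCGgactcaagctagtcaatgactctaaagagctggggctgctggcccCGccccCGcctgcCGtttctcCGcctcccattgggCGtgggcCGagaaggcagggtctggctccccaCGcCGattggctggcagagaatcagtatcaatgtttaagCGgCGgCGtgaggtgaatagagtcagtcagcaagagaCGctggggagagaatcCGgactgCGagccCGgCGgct
Cdh15: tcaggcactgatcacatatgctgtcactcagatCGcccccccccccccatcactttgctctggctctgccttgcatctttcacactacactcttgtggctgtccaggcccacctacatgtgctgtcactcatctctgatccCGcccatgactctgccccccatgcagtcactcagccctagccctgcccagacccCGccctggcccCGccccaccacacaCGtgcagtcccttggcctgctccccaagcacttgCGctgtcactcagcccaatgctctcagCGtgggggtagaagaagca
Pcdh10: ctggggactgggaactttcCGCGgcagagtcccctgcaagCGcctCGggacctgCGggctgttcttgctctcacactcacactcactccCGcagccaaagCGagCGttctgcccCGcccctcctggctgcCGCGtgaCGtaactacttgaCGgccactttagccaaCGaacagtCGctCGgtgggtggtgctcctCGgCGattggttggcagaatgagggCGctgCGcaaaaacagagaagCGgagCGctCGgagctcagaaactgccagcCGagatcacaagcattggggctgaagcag

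The window of Cdh22 held 38 CpG, against a median of 7 over 32851 promoter windows in the table. Pcdh17 held 26, more than 83.1% of all windows, and Pcdh10, which had no counts, held 24, the highest of the undetected genes. The median was 26 over the 5 detected genes with a window and 12 over the 17 undetected genes. The 5 detected genes held 38 (Cdh22), 30 (Cdh24), 26 (Pcdh17), 8 (Pcdh15) and 7 (Cdh15). No gene on chromosome 18 had a window, and 26 of the 31 detected genes lie there. These medians therefore leave out Pcdh1, Cdh2, Pcdh12 and the clusters. Of the 22 genes with a window, 3 of 5 detected and 7 of 17 undetected genes had an observed to expected CpG ratio of at least 0.6, against 35.8% of all windows. The letters say nothing of whether the sites were methylated in these cells.

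Counts of the alpha and gamma clusters were concentrated in a few genes, and those of the beta cluster were spread over many. Detected were 5 of 15 alpha genes, 14 of 22 beta genes and 4 of 22 gamma genes, against 47.2% of all named genes. The cluster totals were 121, 103 and 123 CPM for alpha, 74.8, 62.4 and 52.7 for beta, and 66.5, 57.2 and 68.6 for gamma. Many values of alpha and gamma genes were fractional. Within each library the fractions of a cluster summed to a whole number to within 0.002 of a count, so the division of reads stayed inside a cluster. Cluster totals do not depend on that division, while the value of a single alpha or gamma gene is an estimate that does. The same held for the only fractional beta values, Pcdhb5 and Pcdhb9 in replicate 3, which summed to 113 counts.

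In the alpha cluster, Pcdhac2 took most of the counts. It is a C-type gene, a kind known to be expressed more evenly across neurons than the alternative genes, and its variable exon is the last of 14 in the cluster, nearest the constant exons (gene 37143503 to 37187657 on chromosome 18). It was at 64.3, 54.6 and 70.5 CPM, or 53.2, 52.9 and 57.4% of the alpha counts. The neighbours Pcdha8 and Pcdha9, eighth and ninth in the row, followed. Pcdha9 was at 26.5, 22.6 and 23.8 CPM (21.1 ± 1.48% of alpha counts) and Pcdha8 at 17.1, 15.5 and 16.7 CPM (14.3 ± 0.725%). Pcdha1, the first gene of the row, was at 7.66, 4.59 and 5.68 CPM. The first 3 of these genes held 89.9 ± 0.49% of the alpha counts, and the order of all 4 was the same in all 3 libraries. The other C-type gene, Pcdhac1, had 1.83, 8.46 and 16.9 estimated counts and was not detected, and Pcdha6 and Pcdha7 had counts in 1 library each. Pcdhac2 has 3028 exon bases of its own and 2860 that it shares with other alpha genes.

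In the gamma cluster 1 gene held most of the counts. Pcdhgb8 (chromosome 18, 37761801 to 37841870) was at 55.5, 44.8 and 57.3 CPM, or 83.5, 78.3 and 83.6% of the gamma counts. The annotation lists it as a polymorphic pseudogene, a class for genes that are disrupted in the reference genome and can be intact in other individuals or strains, and the RefSeq table calls it a transcribed pseudogene; counts do not show whether a protein is made. The other detected gamma genes were Pcdhgc3, a C-type gene, at 2.76, 2.40 and 3.57 CPM, Pcdhgb2 at 1.78, 3.42 and 2.13 CPM, and Pcdhga12, the neighbour of Pcdhgb8. Per kilobase, Pcdhgc3 (0.530 ± 0.109) and Pcdhgb2 (0.501 ± 0.177) overlapped, and Pcdhga12 (0.202 ± 0.0445) lay below both in every library. The other C-type genes, Pcdhgc4 and Pcdhgc5, had 0 and 1.53 estimated counts over all libraries. Pcdhga7 had none, and of the 12 A-type genes none but Pcdhga12 was detected. Per kilobase, Pcdhgb8 (11.4 ± 1.47 CPM) and Pcdhac2 (10.7 ± 1.36 CPM) overlapped, so the leading genes of both clusters were within their spread of each other.

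Beta genes were spread over the whole row without a dominant member. Pcdhb11 was at 13.0, 11.3 and 8.16 CPM, 17.0 ± 1.34% of beta counts, and its neighbour Pcdhb10 at 10.1, 9.40 and 7.13 CPM. Pcdhb20 was at 9.25, 7.32 and 6.42 CPM, Pcdhb17 at 8.01, 6.10 and 5.83, and Pcdhb5 at 7.16, 6.89 and 4.91. All 5 were lowest in replicate 3, and together they held 63.6 ± 2.05% of the beta counts. The other 9 detected beta genes, Pcdhb9, Pcdhb16, Pcdhb3, Pcdhb2, Pcdhb22, Pcdhb6, Pcdhb19, Pcdhb21 and Pcdhb18, had means of 1.29 to 2.87 CPM. Per kilobase Pcdhb10 (3.11 ± 0.544) was above Pcdhb11 (2.45 ± 0.557), with overlapping libraries; Pcdhb11 has the longer annotated exon. Pcdhb1, at the start of the row, had 1 count. Pcdhb21 and Pcdhb22 overlap by 455 bases on the same strand, and their values (1.66 ± 0.477 and 2.03 ± 0.388 CPM) are uncertain to that extent.

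**Figure D3:**
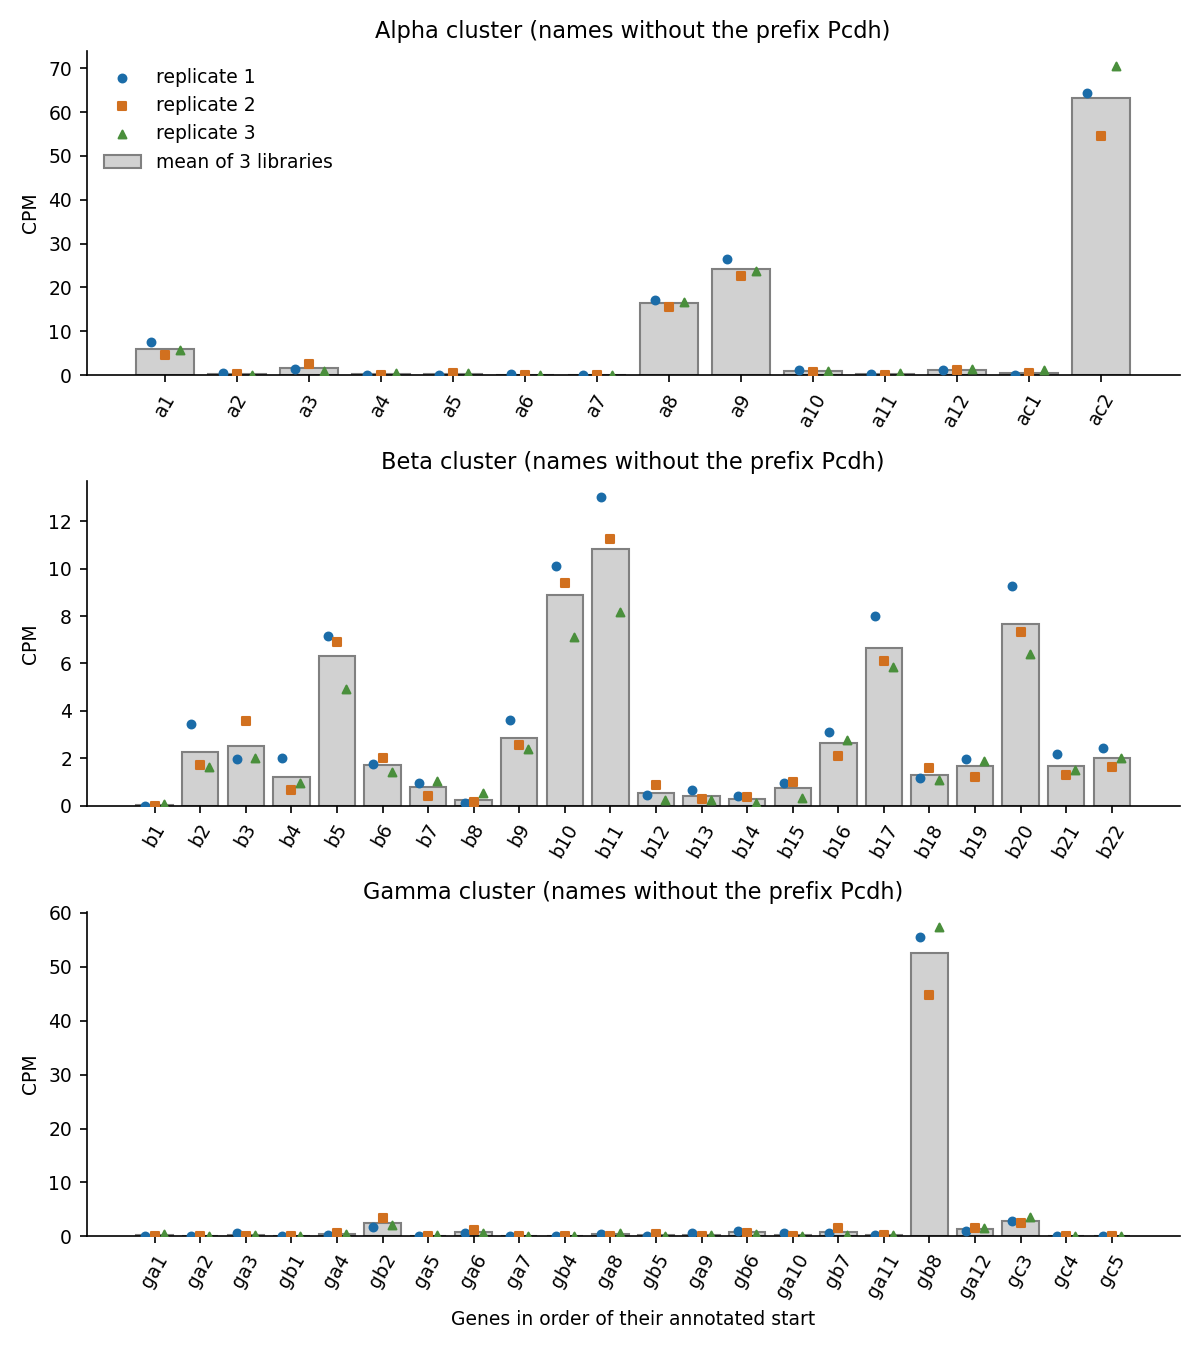
CPM (y axis) of the alpha, beta and gamma genes in the order of their annotated starts (x axis); bars are means of 3 libraries and points are single libraries. Pcdhac2 and Pcdhgb8 rise above the rest of their clusters at 63.1 and 52.6 CPM, whereas beta genes are spread along the row.

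The ratio of alpha to gamma totals was nearly the same in all libraries; the ratio of alpha to beta totals was higher in replicate 3, but the beta total did not pass the test of variation. The ratio of alpha to gamma counts was 1.81, 1.80 and 1.79 in replicates 1, 2 and 3. The ratio of alpha to beta counts was 1.61 (exact 95% interval 1.51 to 1.73), 1.65 (1.52 to 1.80) and 2.33 (2.14 to 2.53). These intervals cover counting error within a library and not the spread between libraries. Replicate 3 had the lowest TMM-scaled CPM for 9 of 14 detected beta genes, against 33.7% of all detected genes. The test of the beta total, which allows for the spread between libraries, gave an adjusted p of 0.9997 (edgeR deviance test; unadjusted p = 0.114) and was added after seeing the data. Ratios of counts are not scaled for length and serve only to compare libraries.

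**Figure D4:**
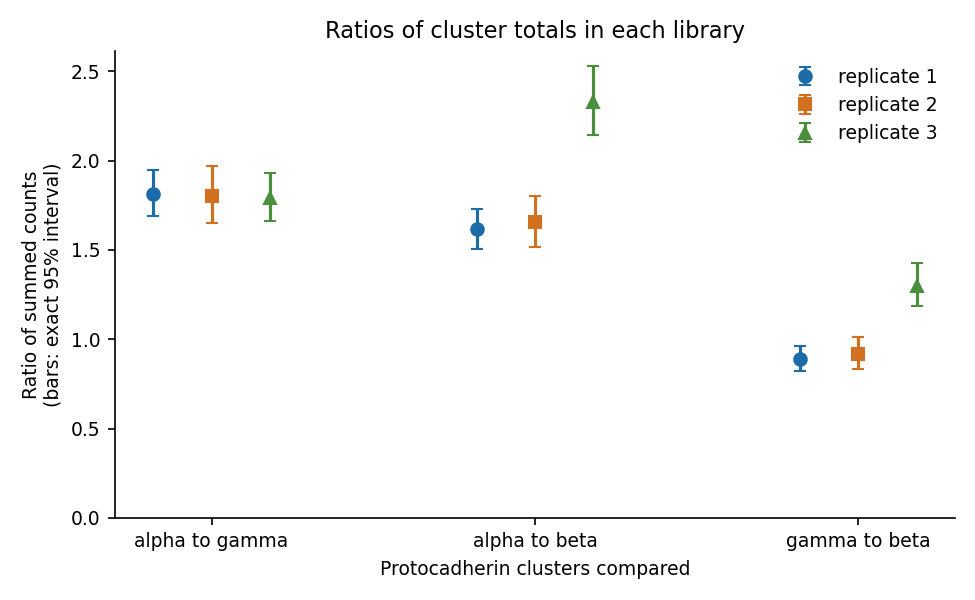
Ratio of summed counts of 2 protocadherin clusters (y axis) for each pair of clusters (x axis) in each library, with exact 95% intervals for counting error. Alpha to gamma stays between 1.79 and 1.81, whereas alpha to beta is 2.33 in replicate 3 and 1.61 and 1.65 in the others.

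No gene of the family passed the test of variation between libraries. Of the 94 genes, 32 had enough counts for the test and 0 were called. The test called 0.643% of all tested genes, so 0 is near that share (edgeR negative binomial deviance test, Benjamini-Hochberg adjusted over 11821 genes). The coefficient of variation, the SD as a percent of the mean, had a median of 19.7% over detected genes of the family. Over all detected genes it was 9.795%, and these sets were not matched for level. An unadjusted p under 0.05 held for 3 of the 32, against 698 of all 11821 tested genes. The lowest was Pcdh12 with 232, 144 and 80 counts (edgeR adjusted p = 0.112; 0.0121 to 0.9998 over the alternatives, called with a common dispersion only), then Pcdh17 with 497, 226 and 382 counts (edgeR adjusted p = 0.488; 0.294 to 0.9999 over the alternatives) and Pcdha3 (edgeR adjusted p = 0.790; 0.374 to 0.9999). All 5 detected alpha genes, Pcdh1 and Pcdh17 were lowest in replicate 2 on TMM-scaled CPM, a library that was lowest for 31.1% of all detected genes. Genes with long transcripts were lower there in general, with a median log2 difference from the other libraries of -0.15 in the 2872 longest of the detected genes and 0.13 in the 2875 shortest. Pcdh17 and Pcdh1 have 12991 and 8797 bases of exon. With the exon length trend removed, the unadjusted p of the edgeR deviance test was 0.0668 for Pcdh17, against 0.0132 in the main test. For Pcdh1 it was 0.495, against 0.220. How much of the difference between libraries in these genes came from length was not tested.

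RNA of most genes that link cadherins to actin was detected. Of 11 catenins and junction linkers 9 were detected, against 47.2% of all named genes. Ctnnb1, beta-catenin, which is also the effector of Wnt signalling, was at 1036 ± 51.1 CPM, Afdn, afadin (listed under its older symbol Mllt4), at 287 ± 42.2, and Jup, plakoglobin, at 205 ± 22.2. Ctnna1, the alpha-catenin of most tissues, was at 198 ± 8.20 CPM and the neuronal Ctnna2 at 14.1 ± 1.40. Per kilobase Ctnnb1 stood at 200 CPM, above every cadherin, Jup at 31.8 ± 3.45 and Afdn at 28.1 ± 4.13. Ctnnd2, the neural delta-catenin, had no counts, whereas Ctnnd1, p120-catenin, was at 135 ± 12.2 CPM.

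Other genes of the cadherin superfamily were detected in 8 of 20 cases, near the 47.2% of all named genes. Clstn1, calsyntenin-1 of vesicle transport in axons, was at 317 ± 33.7 CPM, Celsr3, an atypical cadherin of axon tracts, at 120 ± 25.9 and Fat1 at 73.5 ± 20.8. Per kilobase they were at 68.0, 9.96 and 4.69 CPM, and Clstn1 was the highest of the list. Fat4 had no counts, but Dchs1, the usual ligand of Fat4, was at 67.3 ± 12.6 CPM. The desmosomal cadherins Dsc1, Dsc2, Dsc3, Dsg2 and Dsg3 were at 0. Dchs2 and Cdhr4 had no match in the table.

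All 13 listed regulators of clustered protocadherin promoters were detected, against 47.2% of all named genes, with a median of 137 CPM. The cohesin subunits Rad21 and Smc3 were at 731 ± 20.9 and 336 ± 8.71 CPM, the cohesin loader Nipbl at 294 ± 47.4, and Ctcf, which sets the loops between promoters and enhancers, at 102 ± 3.89. Dnmt3b, which methylates promoters of the clusters, was at 20.3 ± 2.87 CPM, the lowest of the list also per kilobase (3.97), and Smchd1, a repressor of the clusters, was at 131 ± 13.8. All 8 proteases that process or shed cadherins were also detected, against the same 47.2%. Among them were Furin (180 ± 25.3 CPM), Adam10 (121 ± 12.7) and Ncstn (85.7 ± 2.83). Per kilobase Furin was at 19.6 CPM, Adam10 at 24.7 and Ncstn at 21.6.

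Cytoplasmic partners of protocadherins were detected in 10 of 11 cases, against 47.2% of all named genes. Nckap1, a subunit of the WAVE complex, was at 388 ± 18.4 CPM, Ptk2, focal adhesion kinase, which protocadherin tails bind, at 210 ± 6.51, and Abi1 at 136 ± 2.17. Per kilobase Nckap1 was at 78.2 CPM, Abi1 at 33.9 and Ptk2 at 17.8. Ptk2b, the related kinase Pyk2, was not detected (0.499 CPM). Of 6 repressors of E-cadherin transcription 3 were detected, near that share. Zeb2 was at 118 ± 21.8 CPM, Tcf3 at 115 ± 15.1 and Zeb1 at 34.0 ± 3.79. Per kilobase Tcf3 was at 28.5 CPM, above Zeb2 (5.92) and Zeb1 (3.31). Snai1 and Snai2 were not detected (0.180 and 0.0831 CPM), and Twist1 was at 0. No gene of these lists was called in the edgeR test of variation, which called 0.643% of all tested genes, so 0 is near that share. Celsr2, an atypical cadherin like Celsr3, was closest, at 61.3, 34.1 and 35.3 CPM (edgeR adjusted p = 0.0513), and was named after its values were seen.

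**Figure D5:**
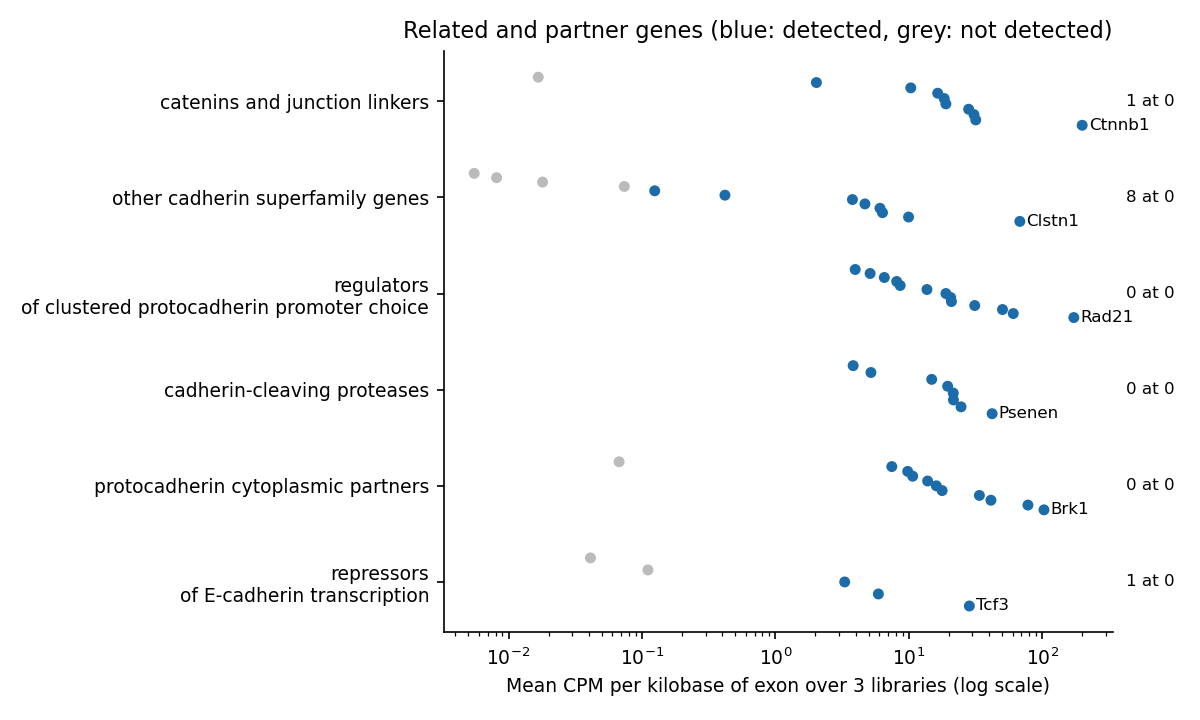
Mean CPM per kilobase of exon over 3 libraries (x axis, log scale) of the genes of 6 lists of related and partner genes (y axis), with the highest gene named and the number of genes at 0 on the right. All 13 regulators of clustered protocadherin promoters are detected, whereas 8 of 20 other superfamily genes are at 0. Of all named genes, 47.2% were detected and 36.7% had no counts.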

How the data were processed

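Per the labels' protocols, ISOGEN extracts were enriched for poly(A) RNA on beads, and the library kit was directional. STAR and mm10 appear in the submitters' processing notes, without a role or version. Which tool, annotation and strand setting produced the counts is not given in the sources used here. The values deposited by the authors are estimated counts for each gene symbol, with no scaling. Of 24411 rows, 27 carried calendar dates in place of symbols (0.281 to 0.306% of counts) and were left out. CPM was computed on the counts as deposited, and rounded counts were used for tests. One count was worth 0.0564 to 0.0717 CPM. Positions and exon lengths (the union of annotated exons) came from GENCODE vM21 on mm10, with 24036 genes (98.6%) matched by symbol, Entrez identifier or RefSeq synonym; 93 of the 94 members had a length, and Pcdha7-g, which had no counts, had none. Promoter windows came from the RefSeq table for GRCm38.p6.

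The test of variation between libraries used edgeR 4.0.16 (R 4.3.3; intercept-only negative binomial fit, TMM, filterByExpr, trended dispersion, deviance against chi-square with 2 degrees of freedom); the test was checked on simulated counts. With an intercept alone there is no coefficient for the quasi-likelihood test. Count ratios have Clopper-Pearson (exact) 95% intervals, which cover counting error alone. Python 3.11.15, pandas 2.3.3 and SciPy 1.17.1 were used for the rest, and DESeq2 1.42.0 gave alternative size factors. A gene was detected at 1 CPM or more in every library. The text names the 30 highest detected members, both genes of each pair, the genes beside the detection minimum, the highest member of each subfamily without a detected one, and 3 or more genes of each partner list; members without counts, low members and the printed promoters were added after their values were seen. The members and lists were chosen with earlier results of these data known.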

Additional observations from a re-analysis of the deposited data

How the results depend on the processing

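Detected members numbered 31, and 30 to 32 under other scalings, with rounded counts or without 1 of the libraries. A minimum of 0.5 CPM gave 38 and one of 2 CPM gave 20. No member varied between libraries under the main test, another normalization, no low-count filter, removal of the length trend, any pair of libraries, or summing of each cluster (added after seeing the data); with a common dispersion 1 member, Pcdh12, was called, among 116 genes. Counted per kilobase, delta-1 protocadherins held 35.5% of the family in place of 50.2%, delta-2 1.42% in place of 2.96%, type II cadherins 17.6% in place of 10.5%, alpha 16.6% in place of 15.0%, beta 13.4% in place of 8.23% and gamma 11.01% in place of 8.35%. With the longest transcript as length, 4 of 31 levels moved by more than their SD: Pcdh1 to 71.3, Cdh2 to 3.82, Pcdh15 to 0.277 and Pcdhga12 to 0.265 CPM per kilobase. The 4 gene ratios kept their sign under a pseudocount of 1 CPM, the other length and every pair of libraries. For Cdh13, and for Cdh11 in replicates 1 and 2, there were no counts to set against Cdh2. The size of the ratios depends on the pseudocount: with 1 CPM the log2 ratios of Cdh2 were 3.41 to Cdh1, 3.46 to Cdh4, 4.40 to Cdh11 and 4.76 to Cdh13. No paired analysis was possible because there was 1 group. Depth limits genes at 0 to under 0.169 to 0.215 CPM per library.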
